A study of Oryctolagus cuniculus with 12 samples.

Results

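AP-1 is a dimeric transcription factor built from basic leucine zipper (bZIP) proteins of the FOS, JUN, ATF, and BATF families. Its members were chosen by gene symbol, and 10 were listed: FOS, FOSB, FOSL1, FOSL2, JUN, JUNB, JUND, ATF3, BATF, and BATF3. Of these, 8 had a row among the 20566 genes of the deposited table, and 7 passed the filter on low counts together with 14835 genes in all. BATF3 did not pass it and is given as counts. JUNB and JUND were not analysed here.

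RNA was sequenced from conjunctiva of female Japanese white rabbits in 12 libraries, 3 in each of 4 groups. The study followed the conjunctiva after trabeculectomy (TL), an operation that drains aqueous humor under the conjunctiva and raises a filtering bleb. The groups TL3h, TL3d, and TL14d were bleb conjunctiva of operated right eyes, taken 3 hours, 3 days, or 14 days later. The control group was conjunctiva of left eyes, which were not operated on. Mitomycin C, a DNA crosslinker that limits scarring, was applied during the operation. In the study's account of the operation, the operated eyes also received betamethasone, a glucocorticoid, and an antibiotic ointment at closure, so that operation, drugs, and time cannot be told apart. Rabbits were 12 to 14 weeks old per the methods. These libraries had been analysed in earlier work, and the age of those animals is not given separately. The time of control tissue collection and the match of control to operated eyes are not given in the sources used here.

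FOS proteins cannot pair with each other and bind DNA as partners of JUN proteins, whereas JUN proteins can also pair among themselves. FOS and FOSB are immediate early genes, whose transcripts rise within minutes of growth factor, stress, or wound signals and are short-lived, while FOSL1 and FOSL2 usually follow. ATF3 is a stress-induced repressor or activator, and BATF and BATF3 are AP-1 factors of lymphoid and myeloid cells. At wounded surfaces such as the skin and cornea, AP-1 is known for driving cytokine, protease, and migration genes.

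The total count per library was between 27111276 and 38591374. Levels of a gene are given as CPM (counts scaled to the library size, which was adjusted by TMM), and levels of different genes are compared only in FPKM, which is also per transcript length. Differences are log2 fold changes of the edgeR quasi-likelihood test, and q is its Benjamini-Hochberg adjusted p-value over 14835 genes, with a threshold of 0.05. The labels do not tie libraries to animals, the study describes its sequencing values as averages over eyes, and q measures the spread between these libraries. With 3 libraries on each side, the smallest p of an exact permutation test is 0.1, and it was not used. TMM factors ranged from 0.768 to 0.783 at 3 hours and from 1.03 to 1.13 elsewhere. Without them, the log2 fold change at 3 hours had a median of -0.47 in place of 0.02 over all genes, and higher genes made up 25.0% in place of 51.0% of those past the threshold. TL14d replicate 1 stood apart from its group, with a mean correlation across genes of 0.969 to the controls and 0.914 to its own group. Control replicate 3 had correlations of 0.938 and 0.954 with the other controls, which had 0.978 with each other. Epithelial markers were present in every library, with a summed level of 6433 to 18659 CPM.

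At 3 hours, 6 of the 7 AP-1 genes tested were higher than in the control group and none was lower. FOSL1, FOSB, FOS, and FOSL2, the FOS-family genes, all rose, as did ATF3 and BATF, while JUN did not pass the test. Of all genes tested, 23.2% were higher and 22.2% were lower. Without TL3h replicate 1 or TL3h replicate 2, 4 AP-1 genes passed the threshold (all genes 5998 and 5733 against 6733). The lowest TL3h library lay above the highest control library for the same 6 AP-1 genes, as it did for 28.9% of all genes. The median log2 fold change was 2.25 over the 7 AP-1 genes and 0.02 over all genes.

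**Figure D1:**
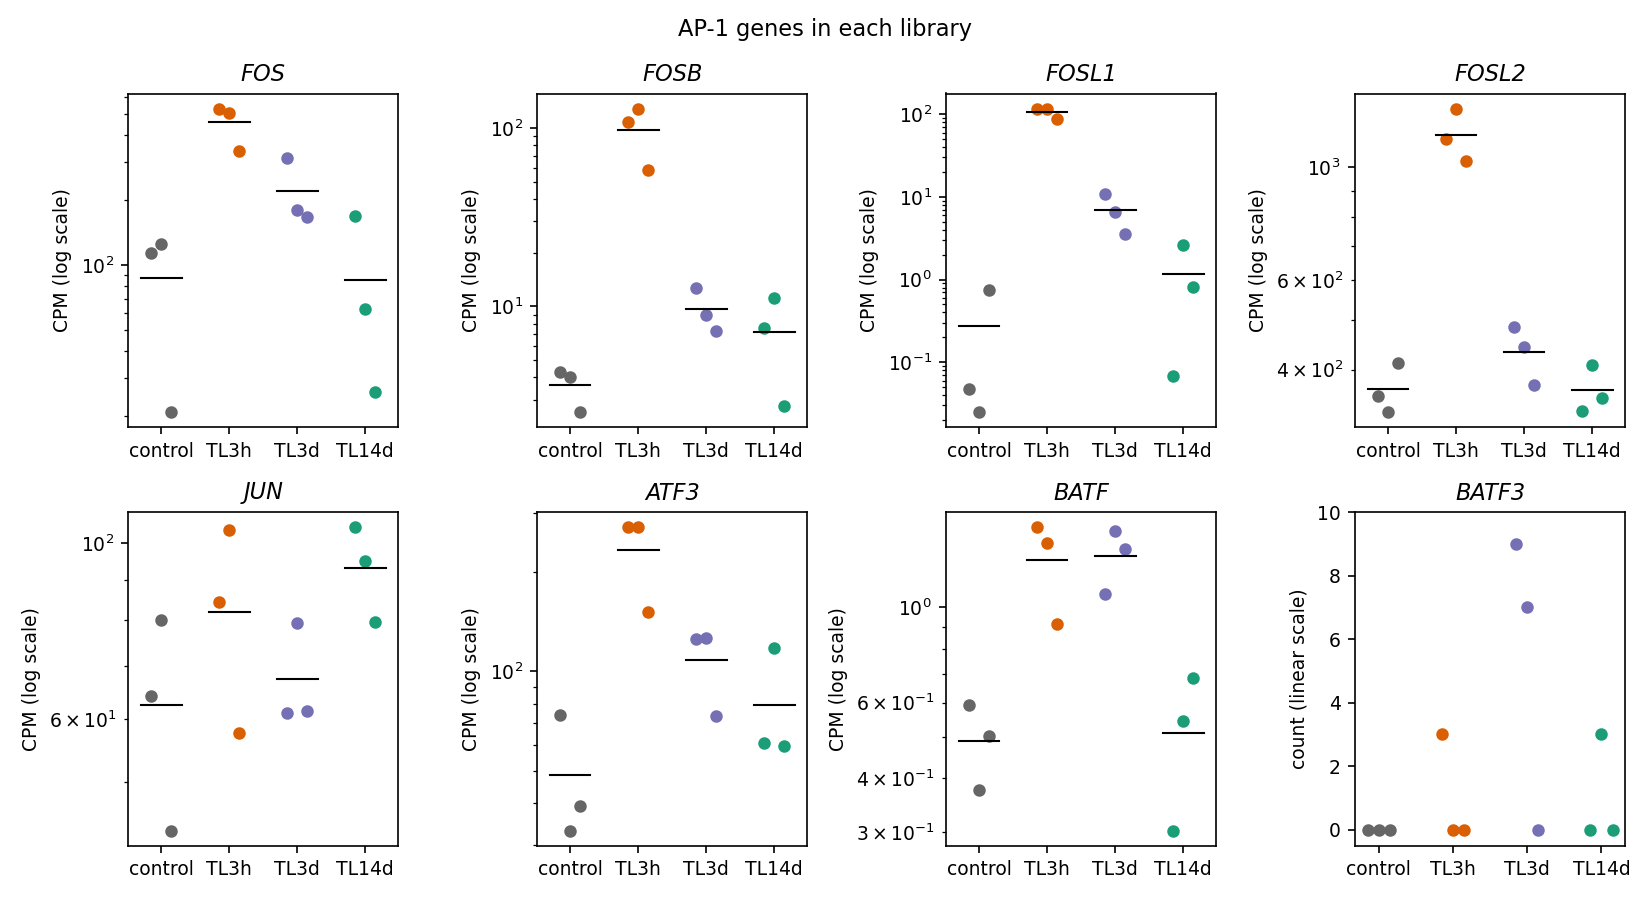
Level of each AP-1 gene in each of the 12 libraries, by group, with replicates 1 to 3 from left to right and the group mean as a line. The vertical axes are CPM on a log scale, with a range of its own for each gene, and counts on a linear scale for BATF3. All 4 FOS-family genes and ATF3 are highest in the TL3h libraries, whereas the JUN groups overlap.

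FOSL1 encodes FRA-1, a FOS protein without the transactivation domain of FOS. On the OryCun2.0 assembly the gene (ID 100338208) spans 193696805 to 193702502 of chromosome 1, on the minus strand. In the control libraries it had 2, 1, and 30 counts, or 0.0475, 0.0250, and 0.752 CPM. In the TL3h libraries it had 3033, 2771, and 2392 counts, or 117, 115, and 87.5 CPM. It was therefore near the counting floor in 2 control libraries, low in the third, and abundant in every TL3h library. The mean rose from 0.275 ± 0.414 to 106 ± 16.3 CPM (SD, n = 3 each). On the log2 scale this was a difference of 8.59 (SE 1.34, q = 0.000674). Without control replicate 3, it was 11.31 (q = 0.000507).

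At 3 days FOSL1 was at 10.7, 6.56, and 3.58 CPM. At 14 days it was at 0.0672, 2.58, and 0.814 CPM, which are 2, 95, and 25 counts. The TL3d libraries all lay below the TL3h libraries and above the control libraries, and TL14d replicate 1 lay within the control range. The mean at 3 hours was 15.3 times that at 3 days and 92.2 times that at 14 days, and the latter was 241 times without TL14d replicate 2. Against the control group, the difference at 3 days was 4.65 on the log2 scale (SE 1.17, q = 0.0268). This call was lost without control replicate 1 (q = 0.0881), control replicate 2 (q = 0.0846), TL3d replicate 1 (q = 0.0772), or TL3d replicate 2 (q = 0.0704). Without control replicate 3, the 1 control library with more than 2 FOSL1 counts, it was 7.42 (q = 0.0204). At 14 days the log2 fold change was 2.09 (q = 0.560), and it ranged from 0.69 without TL14d replicate 2 to 4.86 without control replicate 3 (q = 0.432).

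FOSB is an immediate early gene whose protein carries a transactivation domain like that of FOS. The gene (gene ID 100348962) is on unplaced sequence of OryCun2.0, where the table gives 388172678 to 388176459 on a joined sequence of such pieces. Control libraries were at 4.27, 4.0, and 2.56 CPM and TL3h libraries at 108, 129, and 58.2 CPM. TL3d libraries were at 12.7, 8.99, and 7.25 CPM and TL14d libraries at 7.60, 11.2, and 2.77 CPM. The TL3h group stood clear of all others, the TL3d group stood above the controls, and TL14d replicate 3 fell within the control range. FOSB rose by 4.76 on the log2 scale at 3 hours (SE 0.54, q = 0.000128). At 3 days the value was 1.42 (q = 0.0640) and at 14 days 0.99 (q = 0.504). The 3-day value passed the threshold by DESeq2 (q = 0.0205), with only the 6 libraries compared (q = 0.0313), and with the replicate number as a block (q = 0.0203). It also passed without TL14d replicate 2 (q = 0.0475) or TL14d replicate 3 (q = 0.0325), which entered it only through the shared spread.

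FOS is the founding member and the most studied immediate early gene. It (gene ID 100338345) lies on chromosome 20 from 29860066 to 29863336, on the minus strand. Control libraries were at 114, 126, and 20.9 CPM and TL3h libraries at 530, 509, and 336 CPM. TL3d libraries were at 313, 180, and 167 CPM and TL14d libraries at 168, 62.6, and 25.8 CPM. FOS was thus detected in every control library, was low in control replicate 3 and TL14d replicate 3, and did not overlap between control and TL3h. FOS rose by 2.40 on the log2 scale at 3 hours (SE 0.74, q = 0.0236). The call was lost without TL3h replicate 1 or TL3h replicate 2 (q = 0.0598 each) and with library sizes not adjusted (q = 0.0586). At 3 days all 3 libraries were above the controls, and the log2 fold change was 1.34 with a 95% interval of -0.26 to 2.94 (q = 0.203). At 14 days it was -0.02 with an interval of -1.59 to 1.55 (q = 0.992).

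FOSL2 encodes FRA-2, which like FRA-1 lacks the transactivation domain of FOS. The gene (gene ID 100347042) lies on chromosome 2 from 157648809 to 157670062, on the minus strand, and all of its deposited counts were fractions. It was at 355, 330, and 413 CPM in the control libraries and at 1135, 1305, and 1028 CPM in the TL3h libraries. The TL3d libraries were at 485, 444, and 373 CPM and the TL14d libraries at 332, 408, and 352 CPM. Relative to the mean, its libraries lay closer together within each group than those of the other AP-1 genes tested, and TL3d and TL14d overlapped with the controls. FOSL2 rose by 1.66 on the log2 scale at 3 hours (SE 0.17, q = 7.43e-05), with the lowest q of the AP-1 genes there. It was 0.25 at 3 days, with a 95% interval of -0.12 to 0.61 (q = 0.298), and -0.01 at 14 days, with an interval of -0.37 to 0.35 (q = 0.990).

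JUN encodes a partner of the FOS proteins, and its level did not pass the test at any time. The gene (gene ID 100008856) spans 107997083 to 107998198 of chromosome 13, on the plus strand. Control libraries were at 64.2, 80.0, and 43.4 CPM, TL3h libraries at 84.3, 104, and 57.6 CPM, and TL3d libraries at 61.2, 79.4, and 61.4 CPM. TL14d libraries were at 105, 95, and 79.7 CPM, so that every later group overlapped with the controls. The log2 fold change at 3 hours was 0.39 with a 95% interval of -0.18 to 0.96 (q = 0.248), and it was -0.13 with library sizes not adjusted. It was 0.11 at 3 days (q = 0.794), and -0.11 without control replicate 3. At 14 days it was 0.58 (q = 0.482), and JUN was the AP-1 gene with an unadjusted p below 0.05 there, at 0.0499.

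ATF3 (gene ID 100337749) lies on chromosome 16 from 60421650 to 60434504, on the minus strand. Control libraries were at 73.8, 33.1, and 39.3 CPM and TL3h libraries at 273, 272, and 151 CPM. TL3d libraries were at 126, 126, and 73.3 CPM and TL14d libraries at 60.7, 118, and 59.6 CPM. The TL3h group stood clear of the others, and the lowest TL3d library was level with the highest control. ATF3 rose by 2.25 on the log2 scale at 3 hours (SE 0.41, q = 0.00164). At 3 days the value was 1.15 (q = 0.0697), which passed by DESeq2 (q = 0.0304) and with the replicate block (q = 0.0472), and at 14 days it was 0.70 (q = 0.570).

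BATF (gene ID 100338089) lies on chromosome 20 from 29590176 to 29611130, 248936 bases before FOS in coordinate. Its gene count was low in every library, while its transcript counts summed to 2.08 to 4.44 times as much. Control libraries had 25, 15, and 20 counts, TL3h libraries 40, 34, and 25, TL3d libraries 43, 49, and 48, and TL14d libraries 9, 20, and 21. Control libraries averaged 0.490 ± 0.109 CPM, TL3h libraries 1.29 ± 0.329 CPM, TL3d libraries 1.32 ± 0.221 CPM, and TL14d libraries 0.510 ± 0.193 CPM (SD, n = 3 each). The TL3h and TL3d libraries overlapped with each other and stood above the controls. BATF rose by 1.39 on the log2 scale at 3 hours (SE 0.39, q = 0.0149) and was higher by 1.42 at 3 days (SE 0.39, q = 0.0347). At 14 days the value was 0.06 (q = 0.970).

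Both BATF calls depended on single libraries. At 3 hours q was 0.0639 without control replicate 2, 0.0610 without TL3h replicate 1, and 0.0532 without TL3h replicate 2, and it was 0.0809 with library sizes not adjusted. At 3 days q was 0.0817, 0.118, and 0.0740 without control replicates 1, 2, and 3 in turn. It was 0.0747, 0.116, and 0.0641 without TL3d replicates 1, 2, and 3, and 0.0513 and 0.0503 without TL3h replicates 1 and 2. The 3-day call was also lost with the replicate number as a block (q = 0.0547). BATF3 (gene ID 103350979, chromosome 16 from 60358645 to 60368854) lies 52796 bases from ATF3. It had 0 counts in the 3 control libraries, 3, 0, and 0 at 3 hours, 9, 7, and 0 at 3 days, and 0, 3, and 0 at 14 days. A count of 0 allows up to 3 counts, or 0.0712 to 0.124 CPM, and covers counting error only, so that BATF3 was above this limit only in TL3d replicates 1 and 2.

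**Figure D2:**
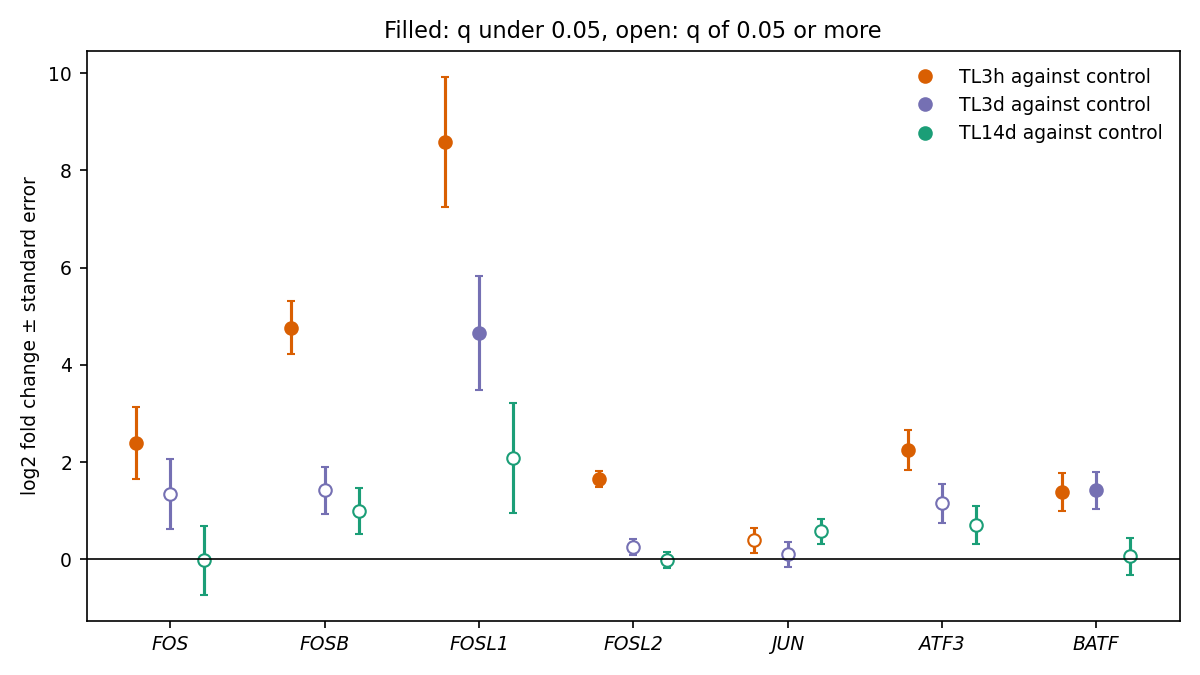
Log2 fold change against the control group for each AP-1 gene that passed the filter, with bars of 1 standard error from the edgeR fit. Filled points passed the threshold, which 6 genes did at 3 hours, 2 at 3 days, and 0 at 14 days, and FOSL1 has the highest value at each time.

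At 3 days, 2 of the 7 AP-1 genes were higher than in the control group and none was lower, against 10.6% and 7.0% of all genes. For 4 of them, FOS, FOSB, FOSL1, and BATF, all TL3d libraries lay above all control libraries, as they did for 23.8% of all genes. Leaving out control replicate 1, control replicate 2, TL3d replicate 1, or TL3d replicate 2 left 0 AP-1 genes past the threshold, and all genes past it fell from 2608 to 491, 370, 449, and 359. At 14 days, 0 of the 7 AP-1 genes passed the threshold by edgeR or by DESeq2, and 1 had an unadjusted edgeR p below 0.05. Of all genes, 0% were higher and 0% were lower by edgeR, with 1538 at an unadjusted p below 0.05 and 367 past the threshold by DESeq2. Without TL14d replicate 1, 716 genes and 0 AP-1 genes passed it by edgeR. No AP-1 gene had all TL14d libraries above all control libraries, against 6.03% of all genes.

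The fall from 3 hours was tested directly, which also tests whether the effects against the shared controls differed. Between 3 hours and 3 days, FOSL1, FOSB, and FOSL2 fell, and 0 of 7 rose, against 19.0% of all genes lower and 18.4% higher. On the log2 scale the values were -3.93 for FOSL1 (SE 1.05, q = 0.0150), -3.35 for FOSB (SE 0.50, q = 0.000718), and -1.41 for FOSL2 (SE 0.17, q = 0.000181). JUN had -0.28 (q = 0.413), and 0.20 with library sizes not adjusted, a fit in which 8.3% of all genes were lower and 34.2% higher. The FOSL1 call was lost without TL3d replicate 2 (q = 0.0595). ATF3 had a value of -1.10 (q = 0.0527), which passed without control replicate 1 (q = 0.0364), TL3h replicate 3 (q = 0.0463), or TL14d replicate 2 (q = 0.0376). It also passed with the replicate number as a block (q = 0.0284), by DESeq2 (q = 0.0343), and with only the 6 libraries compared (q = 0.0384). In the other 12 of 18 alternatives ATF3 did not pass, and q was highest with library sizes not adjusted (q = 0.249). FOS had -1.06 with a 95% interval of -2.64 to 0.53 (q = 0.269), and it passed with only the 6 libraries compared (q = 0.0409). In the other 17 of 18 alternatives FOS did not pass, and q was highest with library sizes not adjusted (q = 0.548). BATF had 0.03 with an interval of -0.81 to 0.87 (q = 0.956).

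By 14 days, 6 of the 7 AP-1 genes were lower than at 3 hours and none was higher, against 22.3% and 22.9% of all genes. Values on the log2 scale were -6.50 for FOSL1 (q = 0.00178), -3.77 for FOSB (q = 0.000339), -2.42 for FOS (q = 0.0235), -1.67 for FOSL2 (q = 7.69e-05), -1.55 for ATF3 (q = 0.0109), and -1.33 for BATF (q = 0.0190). Without TL14d replicate 2 the FOSL1 value was -7.89, and without TL14d replicate 1 the FOS value was -3.37. JUN had 0.18 with a 95% interval of -0.39 to 0.76 (q = 0.586). The FOS call was lost without TL3h replicate 1 (q = 0.0577), TL3h replicate 2 (q = 0.0583), TL14d replicate 2 (q = 0.0721), or TL14d replicate 3 (q = 0.0595). The BATF call was lost without TL3h replicate 1 (q = 0.0716), TL3h replicate 2 (q = 0.0627), or TL14d replicate 1 (q = 0.0512), and with only the 6 libraries compared (q = 0.0781). With library sizes not adjusted, the calls of ATF3 (q = 0.0525), FOS (q = 0.0529), and BATF (q = 0.0952) were all lost. In that fit, 11.3% of all genes were lower and 38.9% were higher.

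Per transcript length, the make-up of the AP-1 transcripts changed with time. FPKM was scaled by the authors without TMM, and on that scale the TL3h values lie lower than in CPM, so that the log2 ratio of the group means at 3 hours was 1.90 for FOS and -0.10 for JUN. Shares within a library are free of this scaling. In the control group the order by mean FPKM was JUN at 58.8, FOSL2 at 51.8, FOS at 40.6, ATF3 at 13.4, FOSB at 1.27, BATF at 0.322, and FOSL1 at 0.171. The first 3 overlapped across libraries, the highest ATF3 library lay above the lowest FOS library, and BATF lay within the range of FOSL1. At 3 hours the order was FOS at 151, FOSL2 at 118, JUN at 54.9, FOSL1 at 49.5, ATF3 at 45.8, FOSB at 24.6, and BATF at 0.609. The FOS and FOSL2 libraries overlapped, as did those of JUN, FOSL1, and ATF3, and the highest FOSB library lay above the lowest ATF3 library. At 3 days the order was FOS at 102, JUN at 63.5, FOSL2 at 62.2, ATF3 at 30.2, FOSL1 at 4.57, and FOSB at 3.40. JUN and FOSL2 overlapped, the highest JUN library (76.2) lay above the lowest FOS library (75.5), and FOSL1 and FOSB overlapped. At 14 days JUN was first at 88.0, followed by FOSL2 at 52.3 and FOS at 39.9, and the lowest JUN library (74.3) was above the highest FOSL2 library and below the highest FOS library (78.4).

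The 4 FOS-family genes together made up 56.5%, 55.8%, and 57.4% of the summed AP-1 FPKM in the control libraries. In the TL3h libraries their share was 76.9%, 75.7%, and 79.7%. It was 70.5%, 57.9%, and 63.2% at 3 days and 52.6%, 43.1%, and 41.0% at 14 days. Every TL3h library was above every other library in this share, and every TL14d library was below every control library. FOSL1 alone went from a share between 0.00851% and 0.401% in the control libraries to one between 10.5% and 12% at 3 hours. The summed FPKM of the FOS-family genes was 1.42 to 1.74 times that of JUN in the control libraries, 5.55 to 7.02 times at 3 hours, 2.07 to 3.93 times at 3 days, and 0.852 to 1.30 times at 14 days. These ratios count transcripts of the members with a row and do not include JUNB or JUND.

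**Figure D3:**
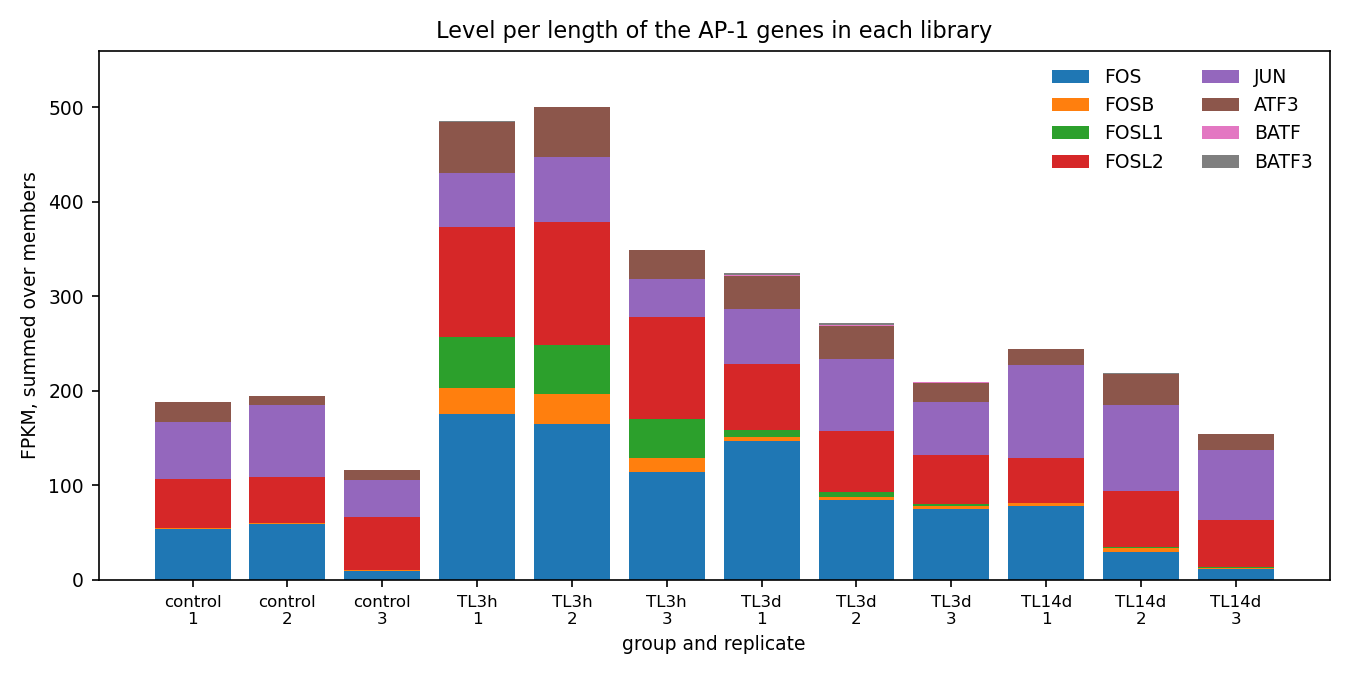
Summed FPKM of the 8 AP-1 genes with a row in each library, with 1 colour per gene. The TL3h bars reach 349 to 501 FPKM against 116 to 195 FPKM in the control libraries, and FOSL1 is visible as a band at 3 hours.

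The transcript table held 1 transcript each for FOS, FOSB, FOSL1, FOSL2, JUN, and BATF3, and 3 each for ATF3 and BATF. Of these, 9 transcripts passed the filter on low counts. At 3 hours 7 of the 9 passed the threshold, against 28.3% of all transcripts tested, at 3 days 1 did, against 5.13%, and at 14 days 0 did, against 0%. The 1 at 3 days was XM_002719638.3 of BATF (q = 0.0491). The FOSL1 transcript did not pass there (4.64 on the log2 scale, q = 0.0526), although the gene did. The count of 8 in all was 4 without control replicate 2 or TL3h replicate 2, and 5 without control replicate 1, TL3h replicate 1, TL3h replicate 3, or TL3d replicate 2. For ATF3, the transcript XM_008268442.2 carried a mean of 2646 counts in the control group and 7752 at 3 hours, 2.19 on the log2 scale (q = 0.00327). A second ATF3 transcript, XM_017347799.1, had means of 11.5 and 58.8 counts and a log2 fold change of 3.00 (q = 0.0285). The third, XM_017347798.1, was at most 0.00813 counts in a control library and averaged 10.4 counts at 3 hours, where it did not pass the test (q = 0.103). Of the 3 ATF3 transcripts, 2 therefore rose at 3 hours. Transcript counts summed to 1.29 to 1.36 times the gene count for ATF3 and 2.08 to 4.44 times for BATF, so that the 2 tables did not count reads alike.

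The genes around AP-1 were read from lists of known function, to be set against the 23.2% of all genes that were higher and 22.2% that were lower at 3 hours. With library sizes not adjusted, these shares were 12.7% and 38.2%, and list counts from that fit are to be set against them. Of 15 other immediate early genes, 13 rose at 3 hours and 0 fell, with a median log2 fold change of 2.27. The zinc finger factor EGR2 rose from 1.51 to 47.0 CPM in the mean (log2 fold change 4.96, q = 0.00323) and the nuclear receptor NR4A3 from 5.06 to 119 CPM (4.56, q = 0.00263, and 5.69 without control replicate 3). Without TL3h replicate 1, 9 of the 15 passed (all genes 5998 against 6733), and with library sizes not adjusted 11 were higher. At 3 days 1 was higher, against 10.6% of all genes. Between 3 hours and 3 days 10 fell, against 19.0% of all genes, among them EGR3, which fell by 4.44 on the log2 scale (q = 0.000245).

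Of 16 genes that control AP-1 turnover or activity, 8 rose and 2 fell at 3 hours, and with library sizes not adjusted 6 were higher and 3 lower. The list holds enzymes and inhibitors that act on AP-1 proteins or on the kinases before them, and also IRF4 and IRF8, which cooperate with BATF and JUN dimers. IRF8, named here after its value was seen, was among the 8 (log2 fold change 1.39, q = 0.0378). DUSP5, a nuclear ERK phosphatase, rose from 4.05 to 118 CPM (log2 fold change 4.87, q = 7.25e-05). SPRY4, an inhibitor of receptor tyrosine kinase signalling, rose from 3.02 to 78.8 CPM (4.71, q = 0.00381, and 6.52 without control replicate 3). DUSP6, the cytoplasmic ERK phosphatase, rose from 15.5 to 337 CPM (4.44, q = 0.000315), and TRIB1, a scaffold for the COP1 ubiquitin ligase, from 23.3 to 393 CPM (4.07, q = 0.000352). At 3 days 5 were higher, IRF8 among them (1.68, q = 0.0415), and 1 was lower, against 10.6% and 7.0% of all genes.

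Of 31 kinases and SRF-type factors upstream of AP-1, 11 rose and 4 fell at 3 hours. With library sizes not adjusted, 6 were higher and 9 lower, in the fit where all genes had a median of -0.47. MAP2K3 and MAP2K6, both activators of p38, went in opposite directions. MAP2K3 rose from 37.0 to 245 CPM (log2 fold change 2.73, q = 7.31e-05), and MAP2K6 fell from 33.0 to 2.6 CPM (-3.67, q = 0.00230). RPS6KA5, a nuclear kinase downstream of ERK and p38, fell from 21.8 to 3.55 CPM (-2.62, q = 1.59e-05). SRF, which binds the FOS promoter, rose from 26.4 to 114 CPM (2.10, q = 7.31e-05). At 3 days 6 of the 31 were higher and 1 was lower, against 10.6% and 7.0% of all genes. MAPK11, a p38 kinase, was higher at 3 days (6.58 CPM against 1.28 CPM, log2 fold change 2.36, q = 0.00950).

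Of 22 other bZIP factors, 14 rose and 1 fell at 3 hours, and with library sizes not adjusted 11 were higher and 4 lower. NFIL3 rose from 3.46 to 86.6 CPM (log2 fold change 4.64, q = 0.00121, and 5.55 without control replicate 3), and NFE2, a factor of blood cells, from 0.708 to 15.8 CPM (4.48, q = 0.00816). The NFE2 value was 6.45 without control replicate 3 and 3.32 without TL3h replicate 2. The small MAF protein gene MAFF rose from 0.865 to 12.9 CPM (3.89, q = 0.000149) and CREM, of the cAMP response family, from 2.48 to 34.0 CPM (3.78, q = 9.98e-05). At 3 days 4 of the 22 were higher and 0 were lower, against 10.6% and 7.0% of all genes.

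Of 26 textbook AP-1 target genes, 22 rose and 1 fell at 3 hours, with a median log2 fold change of 5.27, and these counts were unchanged with library sizes not adjusted. The median was 2.91 at 3 days, where 17 were higher and 0 were lower, against 10.6% and 7.0% of all genes. It was 1.49 at 14 days, where 0 passed. Many of these genes are also controlled by other factors, and AP-1 binding was not measured. Between 3 hours and 14 days, 16 fell and 1 rose, against 22.3% and 22.9% of all genes. HMOX1, a heme-degrading stress enzyme, fell from 1910 to 26.3 CPM (log2 fold change -6.18, q = 8.72e-05).

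Leaving out single libraries changed the list counts at 3 days, as it changed the count of all genes past the threshold, which was 491, 370, 449, and 359 in the 4 fits that follow, against 2608. Without control replicate 1, control replicate 2, TL3d replicate 1, and TL3d replicate 2 in turn, the higher genes numbered 1, 0, 2, and 2 among the targets, 0, 0, 2, and 1 among the genes that control AP-1, and 0, 0, 1, and 0 among the other bZIP factors. Among the upstream kinases and factors they numbered 1, 1, 2, and 1, and among immediate early genes 0 in each case. The target count was also 9 without TL3h replicate 1 or TL3h replicate 3 and 11 without TL14d replicate 3, where all genes past the threshold numbered 2112, 2064, and 2093. The bZIP count was 2 without TL3h replicate 1 or TL14d replicate 3, and 3 genes that control AP-1 were higher without TL3h replicate 1. At 14 days 0 genes of the 5 lists passed the threshold, and without TL14d replicate 1 those past it were 9 targets, 2 upstream kinases or factors, 1 immediate early gene, and 1 gene that controls AP-1, all higher, among 716 genes in all. DESeq2 called 7, 2, 1, and 0 of these lists at 14 days, among 367 genes in all.

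**Figure D4:**
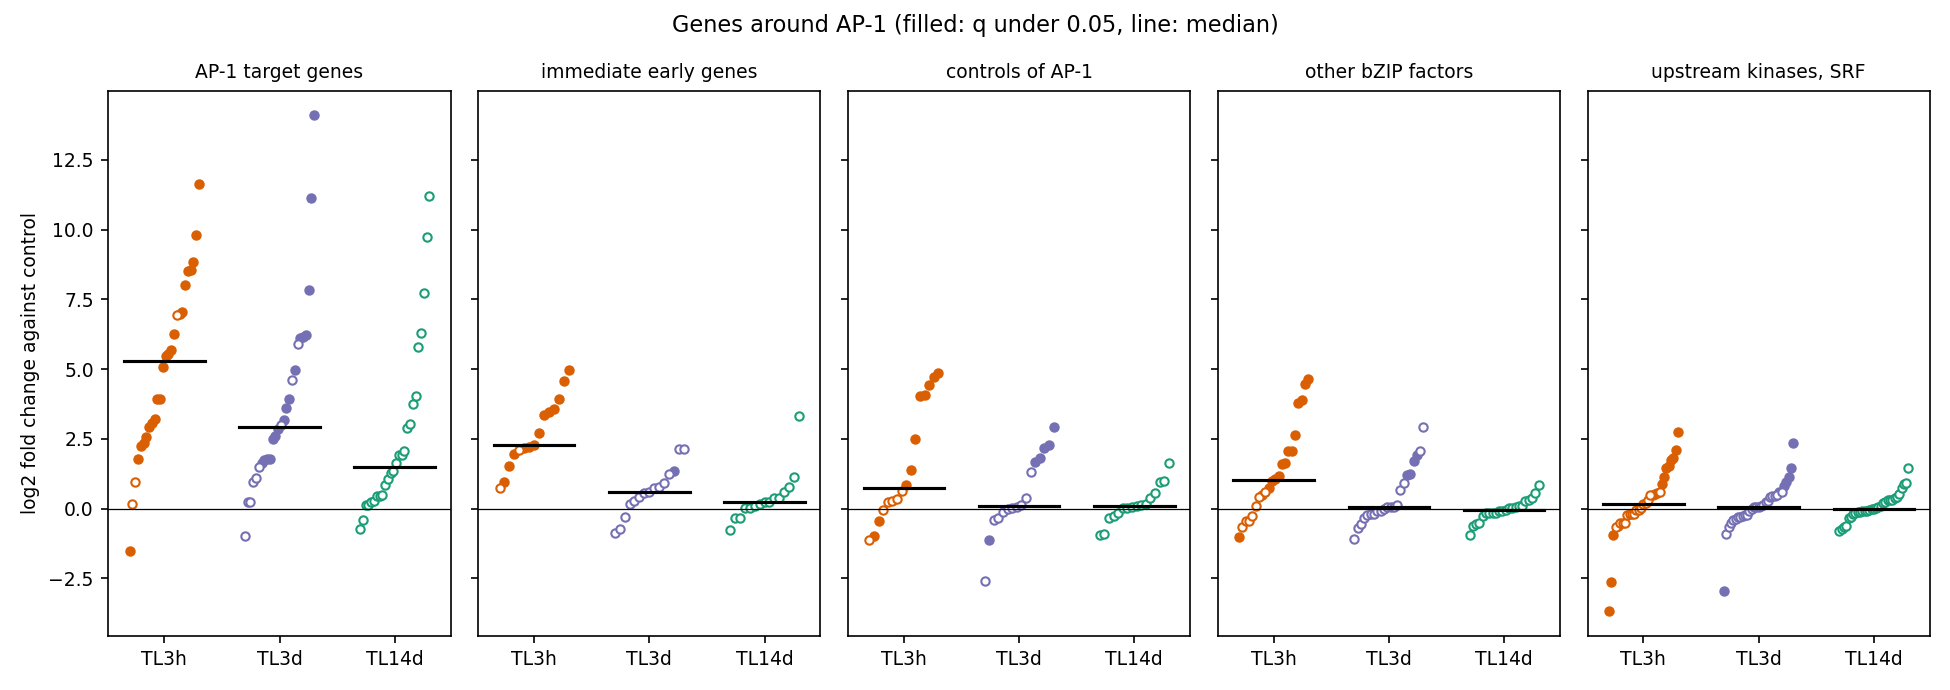
Log2 fold change against the control group of each tested gene in the 5 lists around AP-1, at each time, with genes sorted by value and the list median as a line. Filled points passed the threshold. The medians of AP-1 target genes are 5.27, 2.91, and 1.49, and those of immediate early genes are 2.27 at 3 hours and 0.22 at 14 days.

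Levels of markers of infiltrating cells were read beside these results, against the 23.2% of all genes that were higher at 3 hours and 10.6% at 3 days. The summed level of the neutrophil markers was 3.27 to 78.6 CPM in the control libraries, 993 to 2662 at 3 hours, 119 to 722 at 3 days, and 3.06 to 99.98 at 14 days, and 5 of 5 tested rose at 3 hours and 1 of 5 at 3 days. Dendritic cell markers summed to 1.90 to 8.95 CPM in the control libraries and 30.2 to 42.8 CPM at 3 days, where 4 of 4 tested were higher (1 of 4 at 3 hours), beside the BATF and BATF3 values of that time. Monocyte and macrophage markers summed to 71.7 to 603 CPM in the control libraries and 637 to 974 at 3 hours, where 2 of 6 rose. At 3 days they summed to 1253 to 2003 CPM and 3 of 6 were higher. Fibroblast markers summed to 12402 to 77764 CPM in the control libraries and 107050 to 127867 at 3 hours, where 0 of 7 passed the test. T cell markers summed to 9.48 to 37.4 CPM over all libraries, and of 7 tested 0 were higher and 1 was lower at 3 hours and 0 passed at 3 days. B cell markers summed to 1.57 to 3.31 CPM in the control libraries and 4.09 to 10.2 CPM at 3 days, where 1 of 4 was higher, and at 3 hours 1 was higher and 1 was lower. Skeletal muscle markers reached 350 CPM in control replicate 2 and 473 CPM in TL3d replicate 3 and at most 12.1 CPM elsewhere. Within the control group, neutrophil markers summed to 78.6 CPM in replicate 3 and to 3.27 and 7.98 CPM in the others. Monocyte and macrophage markers summed to 603 CPM in replicate 3 and to 71.7 and 145 CPM in the others. Epithelial and T cell markers were lowest in that library. No marker with a row was at 0 in all libraries. In bulk tissue, fewer cells of a type and less RNA per cell cannot be told apart, and the part of these cells in the AP-1 levels was not tested.

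For each AP-1 gene, the 3 genes most like it were taken by Pearson correlation of log2 CPM over the 12 libraries, which share the 4 groups and their scaling. FOS was most like BTG2 (r = 0.961), EGR1 (0.961), and ZFP36L1 (0.951). FOSB was most like PRKAB1 (0.987), ZNF593 (0.979), and ID2 (0.978). FOSL1 was most like MAP2K3 (0.994), CACYBP (0.993), and CCT3 (0.993), and FOSL2 was most like NOLC1 (0.995), TRMT6 (0.994), and NIP7 (0.993). ATF3 was most like UBE2H (0.967), HSP90AA1 (0.956), and RNPS1 (0.950), and BATF was most like GPR155 (0.955), MTHFS (0.952), and WAS (0.945). JUN had the lowest such values, with LOC100342245 (0.860), LOC100354357 (0.822), and MYO1G (0.809).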

How the data were processed

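Libraries were grouped by their titles. Per the study's methods and processing notes, the authors made stranded TruSeq libraries, mapped 150 bp paired-end reads to OryCun2.0 with STAR 2.6.0c, and quantified them in GeneData Profiler Genome. How strand and multiple placements were counted is not given in the sources used here. The authors deposited estimated counts, not divided by library size, of which 23.4% were fractions. They also deposited FPKM values, scaled by depth and transcript length, which were used only to compare genes with each other.

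Estimated counts were rounded. edgeR 4.0.16 (R 4.3.3) filtered genes (filterByExpr, minimum count 10, minimum total 15), normalized by TMM, and fitted all 12 libraries in 1 quasi-likelihood model with group as the factor. P-values were adjusted over all 14835 genes. Transcripts (38710 rows) were fitted likewise. CPM used adjusted library sizes, and correlations used log2(CPM + 0.5). Standard errors were taken from the fold change and test statistic. The floor of a count of 0 is 3 counts with 95% confidence.

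The AP-1 members, gene lists, and tests were chosen with earlier results of these data known. The text names all members and, from each list, up to 4 genes past the threshold with the largest absolute log2 fold change, of which fewer are printed for some lists. HMOX1 and EGR3 follow this rule in their comparisons. Alternatives were DESeq2 1.42.0 size factors, its own test, library size only, no filter, only the 6 libraries compared, the replicate number as a block, and each library left out. These alternatives were added for list genes after the data were seen. On simulated counts for TL3h against control over 14835 genes, 125 of 200 changed genes were recovered. The test found 5 of 50 at a log2 fold change of 1, 30 of 50 at 2, and 90 of 100 at 8-fold or more. Changes near 1 on the log2 scale were thus mostly missed, and a gene not past the threshold may still have changed. Of the 139 calls 14 were false, or 10.1%, above the 5% aimed for. Libraries within a group were not copies, since the lowest squared count difference over counting variance was 67.8 (near 1 for copies). Figures were drawn with matplotlib 3.10.9.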

Additional observations from a re-analysis of the deposited data

Results flagged for a closer look

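The fold change against the control group differed between time points for 6 AP-1 genes, by the edgeR test of the difference itself. Of all 14835 genes, 5537 differed between 3 hours and 3 days and 6715 between 3 hours and 14 days. Between 3 hours and 3 days, the log2 difference was -3.93 for FOSL1, -3.35 for FOSB, and -1.41 for FOSL2. Between 3 hours and 14 days it was -6.50 for FOSL1, -3.77 for FOSB, -2.42 for FOS, -1.67 for FOSL2, -1.55 for ATF3, and -1.33 for BATF. The 3-day FOSL1 call was lost without TL3d replicate 2 (q = 0.0595). Of the 14-day calls, FOS (highest q = 0.0721, without TL14d replicate 2), BATF (0.0952, with library sizes not adjusted), and ATF3 (0.0525, likewise) were lost under some alternatives. With 3 libraries in a group, single libraries were not tested as outliers.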

How the results depend on the processing

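Of 630 alternative values of the AP-1 genes, 584 stayed on the same side of the threshold, 32 lost a call, 14 gained one, and none of the called values changed sign. Among values not past the threshold, 15 changed sign: FOS, FOSL2, and BATF at 14 days with single libraries left out (-0.20 to 0.41 on the log2 scale), BATF for 3 days against 3 hours (-0.13 and -0.07), and JUN at 3 hours (-0.13 with library size only), at 3 days (-0.11 and -0.03), and for 3 days against 3 hours (0.20 with library size only). At 3 days against control, AP-1 genes past the threshold numbered 4 by DESeq2 (all genes 4471), and from 0 to 3 with single libraries left out (all genes 359 to 3778). At 14 days all genes numbered 367 by DESeq2 and 0 to 716 with single libraries left out. For 3 days against 3 hours, fitting only the 6 libraries compared gave 5 AP-1 genes (FOS and ATF3 gained; all genes 5823), and for 14 days against 3 hours library size only gave 3, without FOS, ATF3, and BATF (all genes 7440). Transcript tests past the threshold numbered 5 with library size only, 5 without the filter, and 4 to 9 with single libraries left out. The cause was not tested. The labels number replicates 1 to 3 in each group, and deviations of same-numbered libraries correlated at -0.153 to 0.517, so the numbers were not taken as pairs. With the replicate block, AP-1 genes past the threshold were 6 at 3 hours, 3 at 3 days (FOSB and ATF3 gained with q = 0.0203 and 0.0472, BATF lost with 0.0547), 0 at 14 days, 4 for 3 days against 3 hours (ATF3 gained), and 6 for 14 days against 3 hours (all genes 6946, 2719, 0, 5831, and 6844 in this order). Low gene counts limit BATF and BATF3, which had at most 49 and 9 in a library. For BATF this is not depth alone, since its transcript XM_002719638.3 had up to 208 counts in a TL3d library.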

Other observations

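FOS, EGR1, and BTG2 varied within the control and TL14d groups. EGR1, an early zinc finger factor, was at 208, 207, and 28.7 CPM in the control libraries, and BTG2, an antiproliferative early gene, at 202, 174, and 40.6 CPM, with FOS at 114, 126, and 20.9 CPM. In the TL14d libraries EGR1 was at 376, 153, and 42.2 CPM, BTG2 at 230, 166, and 89.3 CPM, and FOS at 168, 62.6, and 25.8 CPM. All 3 genes were lowest in replicate 3 of both groups. EGR1 and BTG2 were the genes most like FOS over these same 12 libraries (r = 0.961 each), so that sharing its low libraries is not a separate result. NR4A1 was highest in replicate 3 of the control group, with 5.79, 6.15, and 10.3 CPM, and lowest in replicate 3 of the TL14d group, with 8.17, 10.97, and 6.83 CPM. Of 15 immediate early genes outside AP-1, 6 were lowest in control replicate 3 among the controls and 10 in TL14d replicate 3 among the TL14d libraries. Every gene is lowest in some library of its group, and the share over all genes was not counted. These counts are therefore not read as a trait of the immediate early genes. EGR1, BTG2, and NR4A1 were chosen after their values were seen.

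JDP2, a bZIP repressor of AP-1, lies between BATF and FOS, 167859 bases from FOS in the gene table. It was at 208 CPM in the mean at 3 hours and 46.8 CPM at 3 days, a log2 fold change of -2.15 (q = 0.00123). Of all genes 19.0% were lower in this comparison. Against the control group, JDP2 was higher at 3 hours (1.07, q = 0.0280) and did not pass at 3 days (-1.08, q = 0.0561).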
